A study of Homo sapiens with 12 samples.

Results

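The control cells of a human keratinocyte line, HEK001, were compared with those of a human embryonic kidney line, HEK293, on 6 of the 12 arrays of a nicastrin knockdown series. The 3 HEK001 and 3 HEK293 arrays were chosen by their titles as the pLKO control arrays, and a probe entered where its deposited detection p-value was under 0.01 on all 3 arrays of at least 1 line. Of 47318 probes, 16037 passed, and the 13073 of these with a gene name stood for 10218 genes. The other 6 arrays carry a hairpin against NCSTN, the gene of a gamma-secretase subunit, and enter here only through the shared normalization and spread and as a second pair of groups.

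All 6 control samples had taken up a lentiviral pLKO hairpin against luciferase, a firefly enzyme with no human counterpart, during 24 h of virus with polybrene at 10 µg/mL, and had been selected with puromycin for about 2 weeks. The lines differed in more than origin. HEK293 grew in DMEM with 10% fetal bovine serum and 2 µg/mL puromycin. HEK001 grew in a keratinocyte serum-free medium with EGF and bovine pituitary extract, with puromycin at a labelled 0.5 whose unit is cut short. Line, medium and drug dose therefore cannot be told apart in any value below. Each line is a single established line: HEK001 is an epidermal keratinocyte line immortalized with papillomavirus oncogenes, and HEK293 carries adenovirus E1 genes, so neither stands for its tissue of origin. Titles and cell line entries put 3 control arrays in each line, while the source name reads HEK001 for all 12 samples. Nothing states that replicates were separate cultures, so the p-values measure the spread between these samples only.

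Basal keratinocytes of the epidermis hold their shape with keratin filaments, tie these to neighbours through desmosomes and to the basement membrane through hemidesmosomes, and divide in response to EGF receptor ligands. HEK293 cells grow in culture as loosely attached epithelial cells and are known for transcripts of early neuronal and adrenal type beside those of kidney. HOX genes, which are set along the body axis in the embryo, keep a positional pattern in many adult cells and lines.

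The marker genes followed the line names. All 7 keratinocyte markers with a named probe, of 9 listed, were detected on the 3 HEK001 control arrays and on no HEK293 control array. KRT5, a basal keratin, had log2 normalized signals (called levels below, in the order of replicates 1, 2 and 3) of 13.58, 13.60 and 13.56 in HEK001 and 4.32, 4.38 and 4.51 in HEK293. KRT14, its filament partner, stood at 13.43, 13.17 and 13.27 against 4.37, 4.26 and 4.67. In the other direction, 6 of 7 listed HEK293 markers had a named probe, all 6 were higher in HEK293, and 4 of them were undetected in HEK001. These lists were chosen with earlier results of these data known, so the counts are no independent check of the labels. TUBB2B, a beta-tubulin of developing neurons, had levels of 4.63, 4.75 and 4.55 in HEK001 and 12.20, 12.04 and 11.93 in HEK293. LIN28B, the RNA-binding protein that blocks let-7 microRNA maturation, had 4.53, 4.38 and 4.49 against 10.67, 10.52 and 10.42. Markers of other cell types gave little: of 8 fibroblast markers only COL1A1 was tested, at least 1.502-fold higher in HEK293, of 7 melanocyte markers only PMEL, at least 1.38-fold higher in HEK293, and none of 5 endothelial markers had a named probe. Of 7 leukocyte markers 2 were tested, CD14, at least 2.84-fold higher in HEK293, and CD68, whose probes disagreed in sign. TP63, the master regulator of basal keratinocytes, had no named probe here.

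The control arrays detected between 15256 and 15938 probes each. Arrays of one line correlated across the 10218 genes at Pearson's r between 0.9901 and 0.9942 and arrays of different lines at 0.7606 to 0.7641. With limma, 7776 of 10218 genes (76.1%) had an adjusted p under 0.05 and are called below. HEK293 was the higher line for 4209 (41.2%) of all genes and the lower for 3567 (34.9%). All HEK293 arrays lay above all HEK001 arrays for 4313 genes (42.2%) and below them for 3667 (35.9%). At least 4-fold differences were called for 1159 genes (11.3%), 526 (5.15%) higher and 633 (6.19%) lower. The median log2 difference, always HEK293 minus HEK001 below, was 0.08 over all genes and its median size was 0.67. So many genes were called that a single call says little, and the counts of each gene group are read against these shares. A group member that entered because 1 line alone detected it had to differ, so such counts describe the group and support nothing beyond it. The 6 arrays with the NCSTN hairpin gave a second comparison of the lines: 6419 of the 7776 called genes were called the same way there, 182 the opposite way and 1175 were not called. Of the 1159 genes with at least 4-fold differences, 1156 were called the same way.

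**Figure D1:**
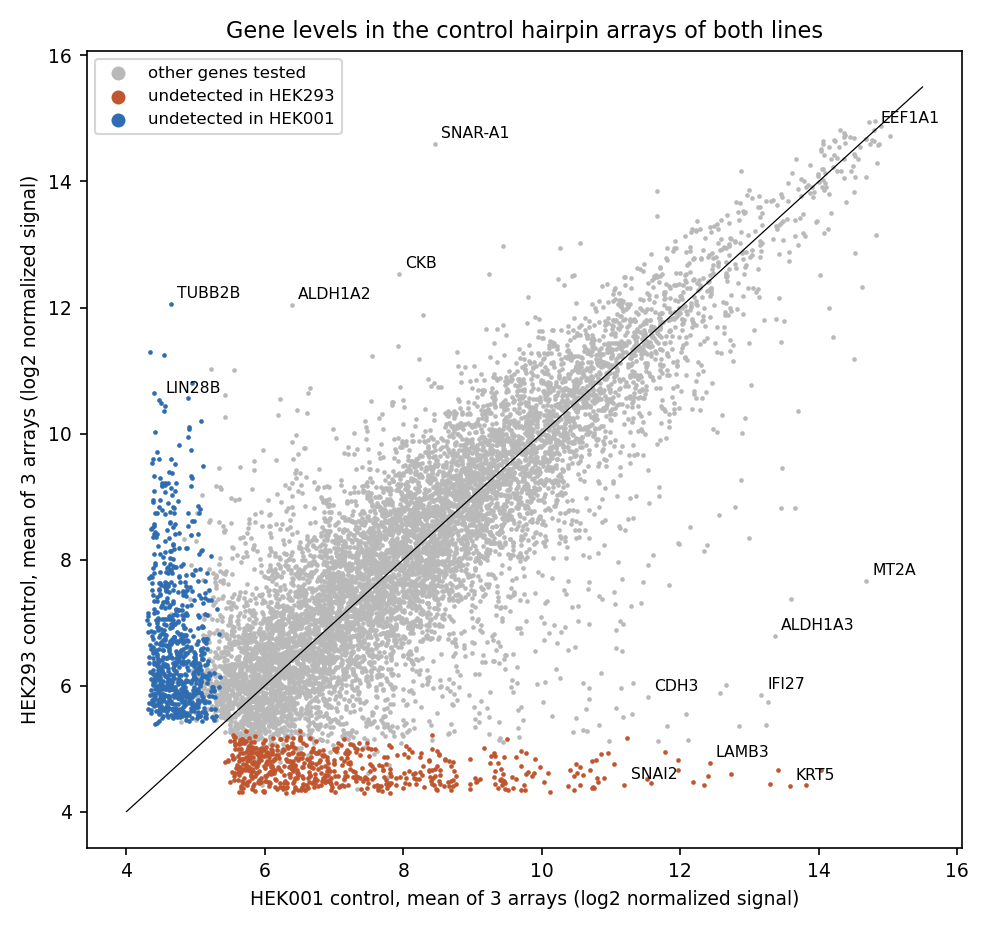
Mean level of each gene over 3 HEK001 control arrays (x axis, log2 normalized signal) against that over 3 HEK293 control arrays (y axis, log2 normalized signal); each point is a gene, and coloured points were undetected on every array of 1 line. KRT5, SNAI2 and LAMB3 lie at the lower right, TUBB2B and LIN28B at the upper left, and EEF1A1 on the diagonal of equal levels.

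Among genes that both lines detected on all arrays, the largest differences toward HEK293 fell on a small noncoding RNA and on enzymes of retinoic acid and creatine metabolism. ALDH1A2, which makes retinoic acid, had levels of 6.21, 6.52 and 6.44 in HEK001 and 12.07, 12.13 and 11.92 in HEK293, a log2 difference of 5.65 (SE 0.11, adjusted p = 1.56e-14). CKB, the brain-type creatine kinase, had 7.88, 8.03 and 7.90 against 12.62, 12.48 and 12.48 and a difference of 4.59 (SE 0.09, adjusted p = 1.44e-14). The groups of both genes lay far apart with narrow spread. SNAR-A1, a short RNA transcribed by polymerase III from a repeated gene family whose copies a probe may not separate, differed by 6.14. The 12 largest also held DNAJC12, a co-chaperone of aromatic amino acid hydroxylases, at 4.33, MCOLN2, a lysosomal cation channel, at 4.12, DBNDD1 at 4.02, and ADAMTS1, a secreted metalloprotease, at 3.91. BCL11A, a zinc finger repressor known for silencing fetal globin, differed by 3.83, and CXADR, the receptor for coxsackievirus and adenovirus, by 3.73. COQ8A, a mitochondrial kinase-like protein of coenzyme Q synthesis, differed by 3.72. HBQ1, a globin gene, differed by 3.77 here and by 0.74 on the NCSTN hairpin arrays. The remaining gene of the 12 lies on both sex chromosomes and is not named.

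Among genes detected on all arrays of both lines, the largest differences toward HEK001 fell on metallothioneins, interferon-induced membrane proteins and ALDH1A3. Metallothioneins bind zinc and copper, and ALDH1A3 is a second retinaldehyde dehydrogenase. MT2A had levels of 14.69, 14.67 and 14.69 in HEK001 and 7.71, 7.76 and 7.49 in HEK293, a log2 difference of -7.03 (SE 0.11, adjusted p = 1.90e-15). ALDH1A3 had 13.54, 13.18 and 13.38 against 6.89, 6.53 and 6.92, a difference of -6.59 (SE 0.12, adjusted p = 1.07e-14). HEK001 was therefore high in ALDH1A3 and HEK293 in ALDH1A2, with no overlap in either gene. IFI27 had 13.22, 13.15 and 13.12 in HEK001 and 5.49, 6.09 and 5.97 in HEK293, a difference of -7.32 (SE 0.16, adjusted p = 3.27e-14). IFITM3, which restricts virus entry, differed by -6.66. MT1E differed by -7.52 on its brighter probe, while its dimmer probe was undetected in HEK293 (fitted difference -1.03), and metallothionein probes may read more than 1 family member. The other 7 genes of this set were ANXA1 (-6.69), LGALS1 (-6.22), PMEPA1 (-5.75), CDH3 (-5.73), DKK3 (-5.29), FERMT1 (-5.18) and SERINC2 (-5.01). They encode an annexin, galectin-1, a TGF-beta-induced membrane protein, P-cadherin, a secreted Dickkopf protein, kindlin-1 and a membrane protein. ANXA1 was less far apart on the NCSTN hairpin arrays, at -2.92.

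For metallothionein and interferon-induced genes, RefSeq windows from 250 bases before to 50 bases after the start (GRCh38.p14) were searched on both strands for the core of the metal response element, written TGCGCNC or TGCACNC, and for the core of the interferon-stimulated response element, a pair of GAAA blocks with 2 bases between them. The first was found in 39.7% and the second in 2.72% of 8341 promoters of tested genes. MT2A, IFI27 and IFITM3 are shown because they lay among the largest differences between the lines, and MT1X (-4.84) as a second metallothionein. Capitals mark every match on either strand, and overlapping matches run together. MT2A (chr16:56608334-56608633, plus strand) held 8 matches of the metal motif and MT1X (chr16:56682220-56682519, plus strand) held 4. IFI27 (chr14:94110486-94110785, plus strand) and IFITM3 (chr11:320811-321110, minus strand) each held 2 matches of the interferon motif. A match describes these letters and is no evidence of binding.
MT2A: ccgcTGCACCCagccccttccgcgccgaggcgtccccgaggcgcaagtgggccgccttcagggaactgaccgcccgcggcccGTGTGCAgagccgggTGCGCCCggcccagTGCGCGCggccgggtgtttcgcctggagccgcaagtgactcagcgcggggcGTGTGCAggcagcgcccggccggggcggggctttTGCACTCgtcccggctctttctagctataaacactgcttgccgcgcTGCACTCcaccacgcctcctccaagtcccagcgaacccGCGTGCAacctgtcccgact
MT1X: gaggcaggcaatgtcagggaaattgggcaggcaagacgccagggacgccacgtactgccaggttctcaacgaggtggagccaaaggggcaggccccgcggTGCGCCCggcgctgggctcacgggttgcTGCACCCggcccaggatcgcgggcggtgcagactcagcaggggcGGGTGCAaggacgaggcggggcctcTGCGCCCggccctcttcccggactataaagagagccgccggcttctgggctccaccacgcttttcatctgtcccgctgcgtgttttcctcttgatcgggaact
IFI27: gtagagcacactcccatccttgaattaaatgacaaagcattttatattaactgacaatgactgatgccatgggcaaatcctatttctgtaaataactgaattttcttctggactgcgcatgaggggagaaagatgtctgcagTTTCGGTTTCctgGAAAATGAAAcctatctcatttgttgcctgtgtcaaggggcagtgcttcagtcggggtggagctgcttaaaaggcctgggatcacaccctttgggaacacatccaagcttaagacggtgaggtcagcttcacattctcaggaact
IFITM3: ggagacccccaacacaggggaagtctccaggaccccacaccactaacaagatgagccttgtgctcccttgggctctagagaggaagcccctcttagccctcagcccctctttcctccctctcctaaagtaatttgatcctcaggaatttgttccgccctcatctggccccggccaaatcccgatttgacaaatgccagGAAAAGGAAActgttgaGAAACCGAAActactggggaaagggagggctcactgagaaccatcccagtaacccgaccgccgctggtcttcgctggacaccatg

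On in HEK001 and undetected on all HEK293 arrays were 620 genes (6.07%), and 772 genes (7.56%) showed the opposite. With undetected taken as a p-value of 0.05 or more, these were 366 and 525. For these only a lower bound of the fold can be given, computed against the higher of the gene's own dim signal and the lowest signal of any detected probe on each array. The bound reached 10-fold for 96 of the 620 and for 61 of the 772, and 100-fold for 10 and 1. On the arrays with the NCSTN hairpin, 507 of the 620 were again undetected in HEK293 and 656 of the 772 were again undetected in HEK001.

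The 15 brightest genes that HEK001 alone detected were TGFBI, KRT6C, KRT5, FST, KRT14, LAD1, LAMB3, SERPINB5, S100A2, THBS1, F3, SFN, CD44, C19orf33 and S100A16. They encode keratins, basement membrane and hemidesmosome components (LAMB3, LAD1), matrix proteins (TGFBI, THBS1), the activin antagonist follistatin (FST), the serpin maspin (SERPINB5), tissue factor (F3), the hyaluronan receptor CD44 and S100 calcium-binding proteins. THBS1, thrombospondin-1, had levels of 12.37, 12.15 and 12.02 in HEK001 and 4.40, 4.54 and 4.48 in HEK293, at least 114-fold. F3 was at least 98.7-fold, CD44 at least 87.0-fold and S100A16 at least 72.0-fold higher in HEK001. LAMB3, F3 and CD44 differed by -6.63, -6.43 and -5.78 on the NCSTN hairpin arrays. HEK293 detected them on all 3 arrays there, and the rest of the 15 on none. The 15 brightest that HEK293 alone detected were TUBB2B, ZCCHC12, ID2, BAMBI, CYFIP2, CPVL, LIN28B, HOXB2, QPRT, NPTX1, LCP1, RRAGD, IGFBP5, KIF1A and MSX1. They include a coactivator in BMP signalling (ZCCHC12), a BMP and activin pseudoreceptor (BAMBI), an inhibitor of basic helix-loop-helix factors (ID2), homeobox factors (HOXB2, MSX1), a neuronal pentraxin (NPTX1) and an axonal kinesin (KIF1A). BAMBI had levels of 4.83, 4.87 and 5.16 in HEK001 and 10.74, 10.87 and 10.80 in HEK293, at least 42.6-fold. QPRT, an enzyme of NAD synthesis, was at least 33.1-fold, LCP1, an actin-bundling protein of blood cells, at least 27.9-fold, RRAGD, a Rag GTPase of mTORC1 signalling, at least 26.2-fold and MSX1 at least 23.6-fold higher.

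Promoters of genes detected in 1 line alone differed in CG dinucleotides mainly where the bound was large. Over all such genes, the 464 HEK001 windows held a median of 21 and the 588 HEK293 windows a median of 23. Of the 96 genes with a bound of at least 10-fold toward HEK001, 72 had a RefSeq promoter window, and it held a median of 11.5 CG dinucleotides. The 47 windows of the 61 corresponding HEK293 genes held a median of 27, as did the 8341 windows of all tested genes. At most 10 CG dinucleotides were found in 35 of 72 (48.6%) windows of the first set, 11 of 47 (23.4%) of the second and 916 of 8341 of all tested. TGACTCA, the AP-1 motif, searched on both strands, was in 9 of 72 (12.5%) and 1 of 47 (2.13%), beside 2.95% of all tested. TATAAA, searched on the gene's strand, was in 9.72% and 4.26%, beside 3.55%. Over all genes detected in 1 line alone, TGACTCA was in 7.54% (HEK001) and 3.23% (HEK293) and TATAAA in 7.76% and 5.95%. The background matters here. Over all 27305 RefSeq promoter windows, of genes tested or not, the median was 14 CG dinucleotides. TGACTCA was in 4.92% of these windows and TATAAA in 7.71%, closer to the HEK001 values than the shares of tested genes. The windows below are 2 of each set, KRT5 (chr12:52520345-52520644, minus strand) and S100A16 (chr1:153613088-153613387, minus strand) with 7 and 3 CG dinucleotides, and TUBB2B (chr6:3227604-3227903, minus strand) and LIN28B (chr6:104940715-104941014, plus strand) with 34 and 37. They were picked as low and high examples after their counts were seen. The sets overlap, holding between 0 and 50 CG dinucleotides in the first and between 1 and 55 in the second. Capitals mark each CG.
KRT5: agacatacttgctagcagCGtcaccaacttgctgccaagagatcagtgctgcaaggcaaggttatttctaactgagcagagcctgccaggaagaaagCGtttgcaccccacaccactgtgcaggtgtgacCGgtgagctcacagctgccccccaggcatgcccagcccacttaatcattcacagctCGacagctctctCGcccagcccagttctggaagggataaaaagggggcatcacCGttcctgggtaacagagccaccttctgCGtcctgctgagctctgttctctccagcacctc
S100A16: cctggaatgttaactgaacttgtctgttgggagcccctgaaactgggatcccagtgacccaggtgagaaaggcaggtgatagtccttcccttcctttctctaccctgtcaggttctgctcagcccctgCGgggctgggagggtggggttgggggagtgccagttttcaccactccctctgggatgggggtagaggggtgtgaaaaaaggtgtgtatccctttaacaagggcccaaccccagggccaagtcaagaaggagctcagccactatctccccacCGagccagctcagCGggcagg
TUBB2B: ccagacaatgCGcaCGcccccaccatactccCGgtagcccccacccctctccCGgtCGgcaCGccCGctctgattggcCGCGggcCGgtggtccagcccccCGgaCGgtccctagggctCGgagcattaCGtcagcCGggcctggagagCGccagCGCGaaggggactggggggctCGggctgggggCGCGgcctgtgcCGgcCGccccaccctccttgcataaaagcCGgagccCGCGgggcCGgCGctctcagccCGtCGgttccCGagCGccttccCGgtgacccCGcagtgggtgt
LIN28B: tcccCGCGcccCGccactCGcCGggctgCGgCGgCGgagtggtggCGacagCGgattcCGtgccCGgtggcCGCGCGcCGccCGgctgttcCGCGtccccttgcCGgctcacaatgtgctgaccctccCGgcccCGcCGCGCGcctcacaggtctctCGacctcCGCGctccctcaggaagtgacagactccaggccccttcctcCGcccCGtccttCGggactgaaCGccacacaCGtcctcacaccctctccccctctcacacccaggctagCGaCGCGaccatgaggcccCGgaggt

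**Figure D2:**
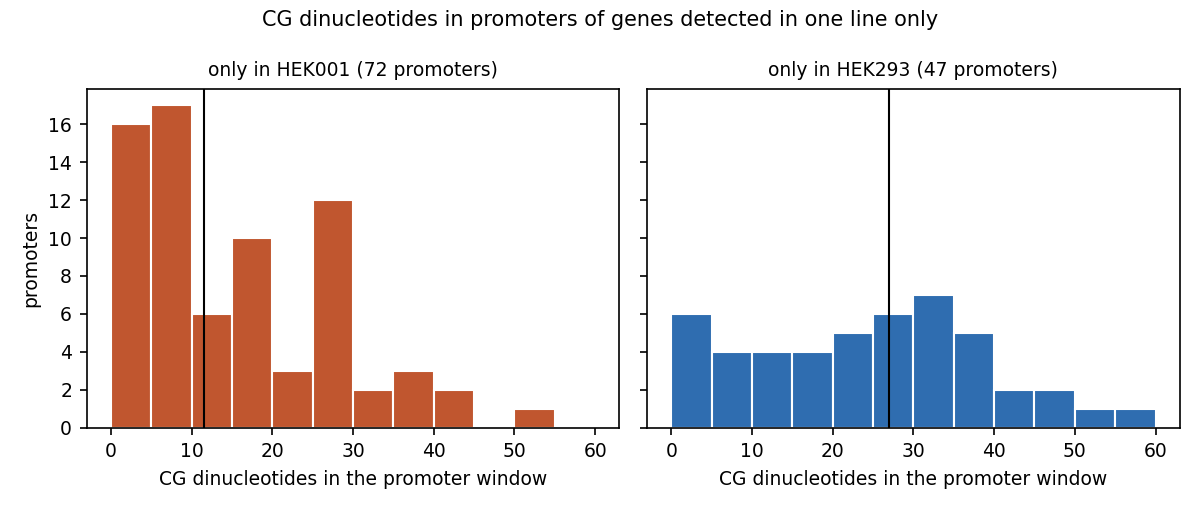
Number of CG dinucleotides in the 300-base promoter window (x axis) against the number of promoters (y axis), for genes detected in 1 line alone with a bound of at least 10-fold; the black line marks the median. The 72 HEK001 promoters centre on 11.5 and the 47 HEK293 promoters on 27.

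Keratins separated by type. All 8 keratins of stratified epithelium that were tested were lower in HEK293 (median log2 difference -5.03), and 7 of them were undetected there. KRT16, induced in activated keratinocytes, had levels of 10.94, 10.83 and 10.67 in HEK001 and 4.47, 4.48 and 4.45 in HEK293, at least 44.3-fold. KRT15, a basal keratin, was at least 8.12-fold, KRT80 at least 7.35-fold and KRT75 at least 1.38-fold higher in HEK001. The exception in detection was KRT10, a keratin of cells that have left the basal layer, with 10.72, 10.63 and 10.77 against 9.92, 10.10 and 10.06 and a difference of -0.68 (adjusted p = 8.03e-05). Keratins of simple epithelium went the other way. KRT8 had 5.31, 4.54 and 4.94 in HEK001 and 9.20, 9.59 and 9.20 in HEK293, at least 15.3-fold, and KRT19 had 4.73, 4.38 and 4.43 against 9.35, 9.02 and 9.28, at least 14.2-fold. Neither gene was detected on any HEK001 array. KRT18, the partner of KRT8, stayed uncertain, since its brighter probe differed by 2.32 and a second by -0.32 (adjusted p = 0.065).

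Of 9 other intermediate filament genes, 3 were higher and 4 lower in HEK293, close to the background. PRPH, peripherin of peripheral neurons, was at least 4.72-fold higher and NEFL, the light neurofilament, differed by 1.13. LMNA, the A-type lamin, differed by -2.54 and INA, alpha-internexin, by -1.75. VIM, vimentin, was bright in both lines at 12.09, 11.99 and 11.998 in HEK001 and 11.64, 11.84 and 11.75 in HEK293, a difference of -0.28 that was 1.85 on the NCSTN hairpin arrays and lost its call without replicate 1 of either line.

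All 11 tested genes of hemidesmosomes and laminin adhesion were lower in HEK293 (median -3.76), 5 of them undetected there. LAMB3, the beta chain of laminin-332, had levels of 12.27, 12.46 and 12.54 in HEK001 and 4.66, 4.83 and 4.83 in HEK293, at least 135-fold. ITGB4, which with ITGA6 forms the hemidesmosome integrin, had 10.61, 10.96 and 10.69 against 4.34, 4.36 and 4.43, at least 42.5-fold, and ITGA6 was at least 8.404-fold higher in HEK001. PLEC, the linker of that integrin to keratin, was at least 9.59-fold higher. Both lines detected COL7A1, the anchoring fibril collagen, with a difference of -3.76, and ITGB1, the common beta chain, with -1.60. CD151, a tetraspanin partner, was the nearest to equal at -0.53.

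Of 10 desmosome genes 8 were lower and none was called higher (median -1.98). PKP1, a plaque protein of suprabasal cells, had 9.51, 9.57 and 9.63 in HEK001 and 4.60, 4.47 and 4.57 in HEK293, at least 18.7-fold. DSG3, the basal desmoglein, was at least 7.18-fold higher in HEK001. The plaque proteins JUP and DSP were detected in both lines and differed by -1.81 and -1.01. DSC2, a desmocollin of simple epithelia, had 7.12, 7.16 and 6.97 against 6.59, 7.09 and 6.75, and PKP2 had 7.47, 7.66 and 7.29 against 7.36, 7.27 and 7.12. Both overlapped between the lines and missed the threshold (differences -0.27 and -0.22, adjusted p = 0.0857 and 0.131).

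**Figure D3:**
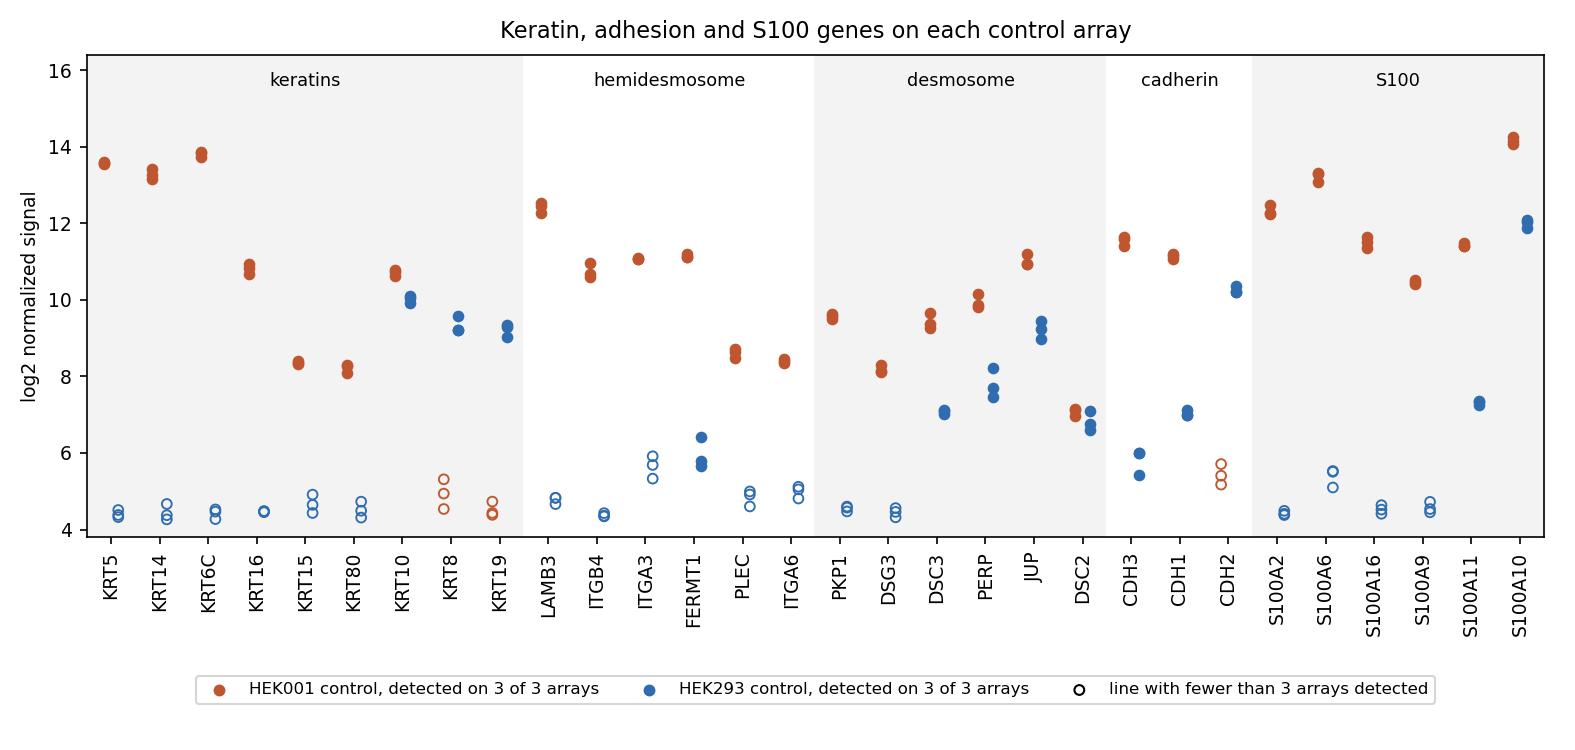
Level on each control array (y axis, log2 normalized signal) for keratin, hemidesmosome, desmosome, cadherin and S100 genes (x axis); each point is an array, and open points mark a line in which fewer than 3 arrays detected the gene. KRT5 and LAMB3 stand at the top in HEK001 and at the bottom in HEK293, KRT8, KRT19 and CDH2 do the opposite, and DSC2 overlaps.

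Cadherins and surface junction genes did not move as 1 block. CDH1, E-cadherin, had levels of 11.19, 11.07 and 11.15 in HEK001 and 6.997, 7.11 and 6.98 in HEK293, a difference of -4.10 (SE 0.11, adjusted p = 2.29e-13). CDH3 had 11.40, 11.64 and 11.59 against 5.43, 6.003 and 6.01, with HEK293 close to the detection limit. CDH2, N-cadherin, had 5.71, 5.17 and 5.41 in HEK001, where 2 of 3 arrays detected it, and 10.21, 10.19 and 10.37 in HEK293, at least 26.8-fold. HEK293 was thus high in N-cadherin and still detected E-cadherin on all 3 arrays. Of 16 epithelial junction and surface genes 8 were lower and 3 higher in HEK293. The 3 higher were EPCAM (2.22), an epithelial adhesion molecule, CGN (2.49), the tight junction protein cingulin, and CLDN1, a claudin, at least 1.999-fold. EPCAM had levels of 10.34, 10.17 and 10.20 in HEK001 and 12.61, 12.37 and 12.39 in HEK293. Among the lower ones were the membrane serine proteases PRSS8 (-3.11) and ST14, the latter at least 2.67-fold.

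Mesenchymal genes were split, with 4 of 9 higher and 4 lower. SNAI2, a zinc finger repressor also present in basal keratinocytes, had 11.26, 11.24 and 11.08 in HEK001 and 4.31, 4.50 and 4.44 in HEK293, at least 57.7-fold toward the keratinocyte line. CDH11, a mesenchymal cadherin, was at least 9.93-fold higher in HEK001. COL6A1, a collagen VI chain, was at least 2.23-fold higher in HEK293 and ACTA2, smooth muscle actin, differed by 1.03. TWIST1 missed the threshold, with a difference of 0.21 and an adjusted p of 0.09.

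Of 15 transcription factors of keratinocytes and other epithelia, 12 were lower and 2 higher in HEK293 (median -1.94). SOX15 had 11.48, 11.65 and 11.89 in HEK001 and 4.81, 5.92 and 4.63 in HEK293, where 1 array detected it, at least 70.1-fold. BNC1, basonuclin of basal keratinocytes, had 9.85, 9.67 and 9.59 against 4.60, 4.94 and 4.62, at least 20.5-fold. Both were separate between the lines on every array. The AP-2 factors TFAP2A and TFAP2C, which act in ectoderm, were detected in both lines and differed by -2.08 and -1.94. SOX9 differed by -2.16, while GRHL2, a grainyhead factor of epithelial junctions, was at least 2.60-fold and EHF, an Ets factor, at least 3.18-fold higher in HEK001. HOPX was at least 1.28-fold and PAX9 at least 1.61-fold higher in HEK293.

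Differentiation genes were tested for 13 of 30 listed, and 10 were lower and 2 higher in HEK293. CALML3, a calmodulin-like protein of epithelia, had 10.33, 10.47 and 10.57 in HEK001 and 4.34, 4.41 and 4.27 in HEK293, at least 34.6-fold. KLK5, a kallikrein protease of the stratum corneum, was at least 17.1-fold and EVPL, envoplakin, at least 4.52-fold higher in HEK001. SPRR1A, a cornified envelope precursor, differed by only -0.74. TGM1, TGM3, TGM5, KLK10 and CALML5 were detected in neither line on all 3 arrays, and 12 others had no named probe. KRTDAP, a keratinocyte secreted peptide, was at least 3.82-fold and CNFN, cornifelin, 1.77 on the log2 scale higher in HEK293, against the rest of the list.

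Of 7 ErbB receptor and ligand genes 5 were lower and 2 higher in HEK293. EGFR had levels of 9.45, 9.45 and 9.43 in HEK001 and 5.03, 4.71 and 5.56 in HEK293, where 1 of 3 arrays detected it, at least 16.44-fold. Its dimmer second probe was undetected in HEK293 (fitted difference -1.88). The ligands TGFA, NRG1 and EREG were undetected in HEK293 and at least 9.01-fold, 9.11-fold and 2.01-fold higher in HEK001. HBEGF, another ligand, differed by -0.75. The coreceptors ERBB2 and ERBB3 were higher in HEK293 by 0.66 and 1.06, and these differences were -0.17 and -0.53 on the NCSTN hairpin arrays. EGF was supplied in the HEK001 medium, and its part in these values was not tested.

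Among 13 other growth factor receptors 9 were higher and 4 lower in HEK293. FGFR3 had 6.602, 6.72 and 6.36 in HEK001 and 9.71, 9.70 and 9.90 in HEK293, a difference of 3.21 (adjusted p = 2.37e-12) that was 0.94 on the NCSTN hairpin arrays. MERTK, a receptor for bridging proteins of dying cells, was at least 4.34-fold and KIT, the stem cell factor receptor, at least 2.41-fold higher in HEK293. AXL, of the same family as MERTK, had 9.90, 9.64 and 9.75 in HEK001 and 4.48, 4.73 and 4.56 in HEK293, at least 21.4-fold the other way. TYRO3, the third member of that family, differed by 1.13. MST1R, the receptor of macrophage-stimulating protein, was at least 13.05-fold higher in HEK001. Of 9 Eph receptors and ephrins 7 were lower in HEK293, led by EPHA1 and EPHA2, at least 9.94-fold and 7.89-fold, while EFNB3 and EPHA4 were at least 5.76-fold and 3.32-fold higher.

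Secreted matrix and matrix-bound factors were mostly brighter in HEK001, with 19 of 25 lower and 5 higher in HEK293 (median -2.07). PLAU, urokinase, had levels of 11.15, 11.27 and 11.29 in HEK001 and 5.18, 5.02 and 5.32 in HEK293, at least 59.4-fold. FSTL3, a follistatin-like activin antagonist, was at least 21.5-fold, MMP1, interstitial collagenase, at least 8.17-fold and SPARC, a collagen-binding matricellular protein, at least 5.46-fold higher in HEK001. COL5A1 differed by -3.69, while COL5A2, its partner chain in collagen V, differed by 0.89. FBN2, fibrillin-2, and TIMP2, a metalloprotease inhibitor, were higher in HEK293 by 1.49 and 1.09. COL4A2 was called lower (-0.67) and COL4A1 was not called (-0.15, adjusted p = 0.212).

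All 11 tested S100 genes were lower in HEK293 (median -4.34). S100A6 had levels of 13.09, 13.30 and 13.32 in HEK001 and 5.10, 5.51 and 5.53 in HEK293, where 2 arrays detected it, at least 219-fold. S100A9 and S100A8, the pair that forms calprotectin, were at least 34.8-fold and 24.8-fold higher in HEK001. S100A10, the annexin A2 partner, had 14.26, 14.14 and 14.06 against 12.08, 12.02 and 11.87 and was bright in both lines. Annexins were lower for 7 of 8, with ANXA3 at -4.72 and ANXA2 at -3.33. Caveola genes were lower for 6 of 7. CAV1, the main caveolar coat protein, had 13.55, 13.38 and 13.45 in HEK001 and 8.86, 8.84 and 8.73 in HEK293, a difference of -4.65 (SE 0.10, adjusted p = 3.03e-14). CAVIN1 differed by -3.85, CAV2 by -3.54, and CAVIN3 was at least 43.5-fold higher in HEK001. PACSIN2, a membrane-bending protein, was not called (0.10).

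HEK001 alone detected 9 of 12 tested keratinocyte cytokines and chemokines, and these 9 were called lower in HEK293. IL1A, which keratinocytes store and release as an alarm signal, had 10.76, 10.70 and 10.72 in HEK001 and 4.21, 4.45 and 4.44 in HEK293, at least 41.8-fold. IL1B had 10.37, 10.38 and 10.37 against 4.37, 4.38 and 4.49, at least 32.6-fold. CXCL5, a neutrophil chemokine, was at least 22.8-fold, IL24 at least 13.5-fold and IL1RN, the receptor antagonist, at least 4.39-fold higher in HEK001. CXCL8 missed the threshold (-0.58, adjusted p = 0.106). CXCL16, a membrane-bound chemokine, and IL18 were higher in HEK293 by 2.89 and 0.84. IL1A and S100A2 are shown as promoters of HEK001 genes with the TGACTCA motif counted above. The windows lie at chr2:112784444-112784743 and chr1:153565795-153566094, both on the minus strand, and hold 2 and 1 matches, marked in capitals.
IL1A: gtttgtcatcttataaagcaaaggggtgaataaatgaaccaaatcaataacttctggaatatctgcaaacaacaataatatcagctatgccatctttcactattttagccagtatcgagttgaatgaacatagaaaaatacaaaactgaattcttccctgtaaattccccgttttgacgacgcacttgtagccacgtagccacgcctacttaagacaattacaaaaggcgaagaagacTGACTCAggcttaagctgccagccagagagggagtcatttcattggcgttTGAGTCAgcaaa
S100A2: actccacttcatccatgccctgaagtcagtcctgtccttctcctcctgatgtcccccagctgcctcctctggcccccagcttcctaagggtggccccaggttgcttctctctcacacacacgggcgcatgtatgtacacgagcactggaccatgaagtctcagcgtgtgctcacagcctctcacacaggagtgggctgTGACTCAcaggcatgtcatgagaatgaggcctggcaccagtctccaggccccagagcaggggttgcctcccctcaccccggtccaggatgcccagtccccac

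Sensors of nucleic acids and danger were lower in HEK293 for 14 of 15 (median -2.22). CASP4, an inflammatory caspase, had 9.38, 9.20 and 9.40 in HEK001 and 5.32, 4.47 and 4.85 in HEK293, at least 15.8-fold. CASP1 was at least 8.52-fold, GSDMD, the pore-forming caspase substrate, at least 7.73-fold, PYCARD, the inflammasome adaptor, at least 4.19-fold, and CGAS, the cytosolic DNA sensor, at least 3.33-fold higher in HEK001. IFI16, a nuclear DNA sensor, had 10.08, 9.78 and 9.92 against 6.17, 6.11 and 5.78, a difference of -3.90. STING1, which acts downstream of CGAS, was the exception, with 6.12, 6.56 and 6.21 in HEK001 and 7.57, 7.31 and 7.72 in HEK293, a difference of 1.24 (SE 0.15, adjusted p = 5.08e-06). Antigen presentation genes were less uniform, with 9 of 15 lower and 4 higher. PSMB8, an immunoproteasome subunit, was at least 10.7-fold higher in HEK001, and HLA-C was higher in HEK293 by 1.36, where cross-reading between HLA genes was not analysed. Protease inhibitors of squamous epithelium were lower for 7 of 8, with SLPI at least 16.8-fold.

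HOX genes were tested for 21 of 39, and 19 were higher and 2 lower in HEK293 (median 2.09, all genes 0.08). HOXB2 had levels of 4.53, 4.57 and 4.42 in HEK001 and 10.49, 10.61 and 10.33 in HEK293, at least 34.0-fold. HOXB8 had 4.27, 4.41 and 4.45 against 9.70, 9.58 and 9.49, at least 18.3-fold, and HOXB5 was at least 43.5-fold higher. HOXB7 broke this run, being detected on all arrays with 8.74, 8.85 and 8.95 in HEK001 and 9.21, 9.41 and 9.19 in HEK293, a difference of 0.42 (adjusted p = 0.00226). In the HOXD cluster, HOXD11, a gene of the posterior axis, had 4.997, 5.26 and 4.52 against 9.80, 9.74 and 9.67, at least 20.3-fold. HOXD10 was at least 14.1-fold and HOXD13 at least 4.40-fold higher, while HOXD1, HOXD3 and HOXD4, at the other end of the cluster, lay near the detection limit in both lines. HEK001 detected HOXC genes. HOXC6 had 8.30, 8.17 and 8.21 in HEK001 and 11.15, 11.13 and 11.27 in HEK293, a difference of 2.96, and HOXC4, HOXC8 and HOXC9 differed by 2.43, 1.75 and 2.61. The 2 lower in HEK293 were HOXC10, at least 1.18-fold, and HOXD8 (-0.30, adjusted p = 0.0497), both dim, and the call on HOXD8 was lost under 11 of 15 alternatives, which leaves HOXC10 alone. Among the 19 higher, the call on HOXD4 (0.56) was lost under 9 of the 15. Of the HOXA genes listed only HOXA2 was tested (1.14), and the others had no named probe here. HOXA11-AS, an antisense transcript of that cluster outside the list, was detected in HEK293 alone, with a bound of at least 10-fold.

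**Figure D4:**
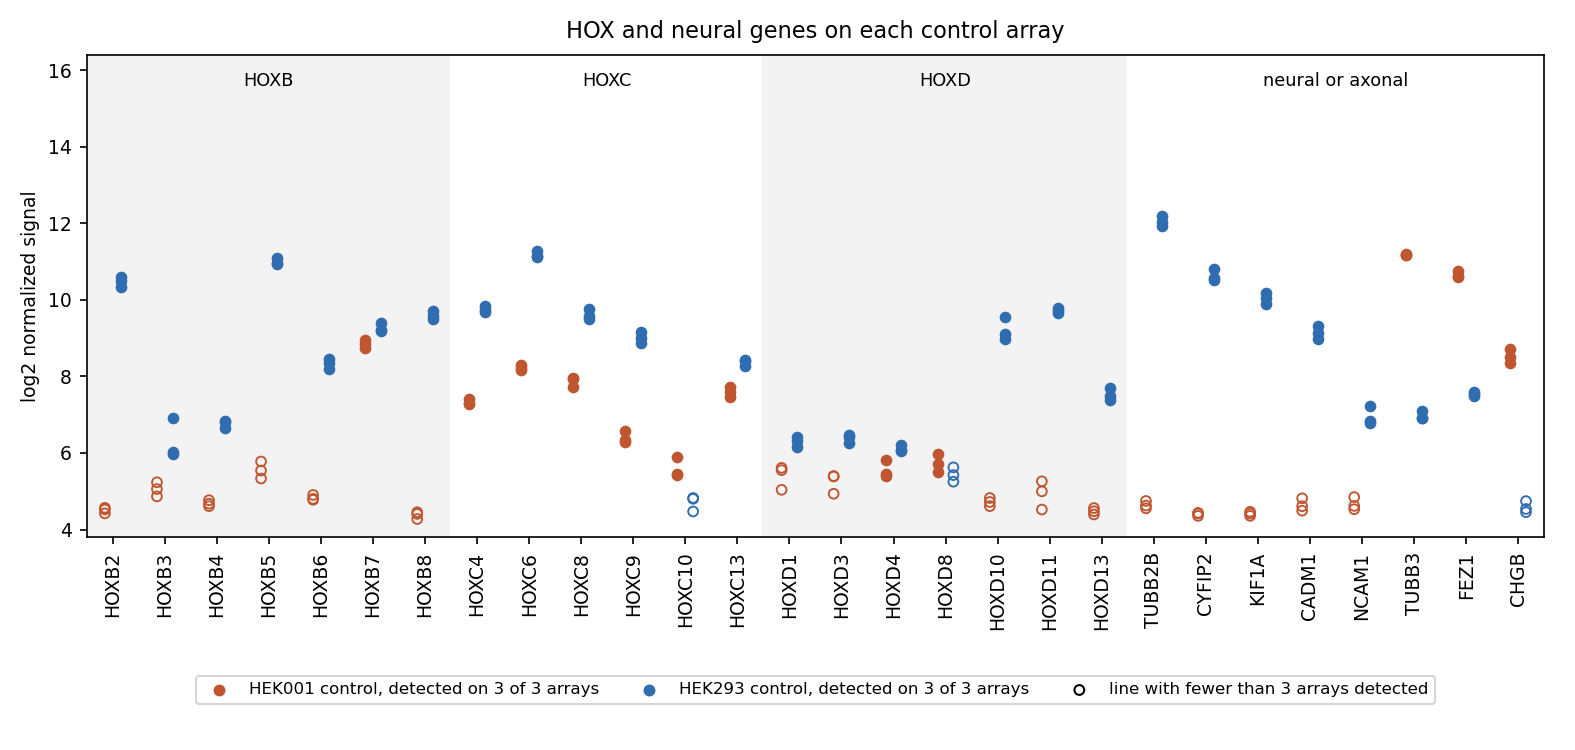
Level on each control array (y axis, log2 normalized signal) for HOXB, HOXC and HOXD genes and for neural or axonal genes (x axis); each point is an array, and open points mark a line in which fewer than 3 arrays detected the gene. HOXB7 and the HOXC genes other than HOXC10 are detected in both lines, HOXB2, HOXB8 and HOXD11 in HEK293 alone, and TUBB3, FEZ1 and CHGB are higher in HEK001.

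Neural genes were divided between the lines. Of 21 neurofilament, tubulin and axon genes 11 were higher and 9 lower in HEK293, and all 11 higher ones were undetected in HEK001. KIF1A had levels of 4.46, 4.36 and 4.42 in HEK001 and 10.04, 10.17 and 9.88 in HEK293, at least 24.9-fold. CADM1, a synaptic adhesion molecule, was at least 13.4-fold, KIF5C, a neuronal kinesin, at least 6.92-fold, NRCAM at least 2.99-fold and NCAM1 at least 2.94-fold higher in HEK293. In the other direction TUBB3, a beta-tubulin much used as a neuron marker, had 11.17, 11.19 and 11.17 in HEK001 and 6.92, 7.09 and 6.90 in HEK293, a difference of -4.21 (SE 0.09, adjusted p = 5.89e-14). FEZ1, an axon outgrowth adaptor, differed by -3.13, CRMP1 by -2.34, and DPYSL4 was at least 8.11-fold higher in HEK001. Of 19 neuroendocrine and synaptic genes 9 were higher and 8 lower. CHGB, a chromogranin of secretory granules, had 8.51, 8.34 and 8.72 in HEK001 and 4.45, 4.54 and 4.74 in HEK293, at least 9.07-fold toward the keratinocyte line, and VGF, a secreted neuropeptide precursor, differed by -3.38. NPTX1 was at least 31.3-fold and ENO2, the neuronal enolase, at least 5.51-fold higher in HEK293.

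Kidney genes were tested for only 9 of 33, with 7 higher and 2 lower in HEK293. SALL2, a zinc finger factor, had 4.70, 5.23 and 5.25 in HEK001 and 8.87, 8.89 and 8.66 in HEK293, at least 10.7-fold. PODXL, the podocyte sialomucin, had 4.41, 4.42 and 4.28 against 8.37, 8.43 and 8.70, at least 8.62-fold. EMX2, a homeobox factor of the urogenital tract, was at least 3.49-fold, LRP2, megalin of the proximal tubule, at least 1.51-fold and EYA1 at least 1.27-fold higher in HEK293. LHX1 and OSR1, factors of early nephrogenesis, went the other way, with LHX1 at least 2.50-fold higher in HEK001 and OSR1 at -1.45. PAX2 and PAX8 had no named probe here, and WT1 was detected in neither line on all 3 arrays. Of 5 adrenal and sympathetic genes tested from 23 listed, 4 were higher in HEK293, SOX4 by 1.38, while TH, the rate-limiting enzyme of catecholamine synthesis, had 7.84, 8.21 and 8.04 in HEK001 and 4.50, 4.35 and 4.50 in HEK293, at least 6.44-fold higher in HEK001.

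Fetal and early embryonic genes were few on the array annotation. Of 9 fetal or let-7 related genes tested 5 were higher and 1 lower in HEK293. ARID3B, a let-7 target, had 7.15, 7.35 and 6.94 in HEK001 and 9.65, 9.86 and 9.54 in HEK293, a difference of 2.54. The RNA-binding proteins IGF2BP1 and IGF2BP3 were higher in HEK293, at least 1.47-fold and by 0.70 on the log2 scale. HMGA2, another let-7 target, had 7.57, 7.28 and 7.40 against 4.83, 4.94 and 5.26, at least 4.21-fold higher in the line where LIN28B was undetected. SOX2 was at least 4.27-fold, DNMT3B, a DNA methyltransferase, at least 3.36-fold and PRAME, a cancer-testis gene, at least 10.04-fold higher in HEK293. Of 10 imprinted genes 4 were higher and 4 lower. SNRPN had 9.83, 9.73 and 9.73 in HEK001 and 4.25, 4.33 and 4.44 in HEK293, at least 21.4-fold, and MEST and PHLDA2 were at least 4.95-fold and 7.15-fold higher in HEK001. GRB10, an adaptor of insulin signalling, was at least 4.86-fold and PEG10 1.25 on the log2 scale higher in HEK293.

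BMP signalling and ID genes were higher in HEK293 for 8 of 12 and lower for 3. SMAD6, an inhibitory SMAD, had 4.39, 4.56 and 4.35 in HEK001 and 8.70, 8.80 and 8.71 in HEK293, at least 10.2-fold. The ligand BMP7 was at least 5.56-fold and SMAD9, a BMP effector, at least 3.36-fold higher in HEK293. Among the ID genes, ID2 had 4.52, 4.60 and 4.49 against 11.29, 11.27 and 11.18, at least 57.9-fold, and ID3 differed by 0.75. ID1 went the other way, with 8.69, 8.89 and 8.74 in HEK001 and 7.505, 7.24 and 7.56 in HEK293, a difference of -1.34 (adjusted p = 4.05e-08), and so did the ligand BMP2 (-1.59). ID1 differed by -0.14 on the NCSTN hairpin arrays.

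Metabolic genes varied gene by gene. Of 14 genes of hormone carriage, creatine and serine metabolism, 8 were higher and 6 lower in HEK293. PHGDH, which starts serine synthesis from glycolysis, had 9.23, 9.52 and 9.59 in HEK001 and 12.95, 13.03 and 12.97 in HEK293, a difference of 3.54 (SE 0.10, adjusted p = 6.37e-13). PSPH, at the end of that pathway, differed by -0.38. GAMT, which makes creatine, differed by 3.52, ASNS, asparagine synthetase, by 2.30, and ASS1 by 1.71. CRABP2 and FABP5, carriers of retinoic acid and fatty acids, differed by -1.19 and -1.35. Of 21 xenobiotic and antioxidant enzymes 9 were higher and 10 lower. NQO1, a quinone reductase, had 9.53, 9.48 and 9.34 against 6.24, 6.75 and 6.28, a difference of -3.02, and UGT1A6 was at least 12.3-fold higher in HEK001. GPX3, the secreted glutathione peroxidase, was at least 4.39-fold higher in HEK293 and TXNRD1, thioredoxin reductase, differed by 1.11.

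Cell division genes were mixed. Of 20 mitotic genes 8 were higher and 6 lower in HEK293, with a median of 0.12, and the difference in CDK1 was -0.13 and in CCNB1 0.15, neither called. Of 18 replication genes 11 were higher and 2 lower (median 0.40), with MCM6 at 0.91 and RRM2 at -0.98. Of 20 G1 regulators 9 were higher and 9 lower. CDK6 and CCND1, which act at entry into S phase, differed by -1.57 and -1.40, while E2F2 and CDKN1B differed by 1.68 and 1.02. The probes of CDKN2A disagreed in sign (-0.91 and 0.52). Splicing regulators were also mixed, with 5 of 11 higher and 4 lower, ESRP1, an epithelial splicing factor, being at least 1.71-fold higher in HEK001 and RBM47 differing by 1.88. Of 12 reference genes 5 were higher and 5 lower, and 3 were higher under median scaling. EEF1A1 had 14.85, 14.76 and 14.78 in HEK001 and 14.90, 14.75 and 14.82 in HEK293 and was not called (adjusted p = 0.795), whereas ACTB differed by -1.67 and GAPDH by -0.29, a call lost under median scaling.

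**Figure D5:**
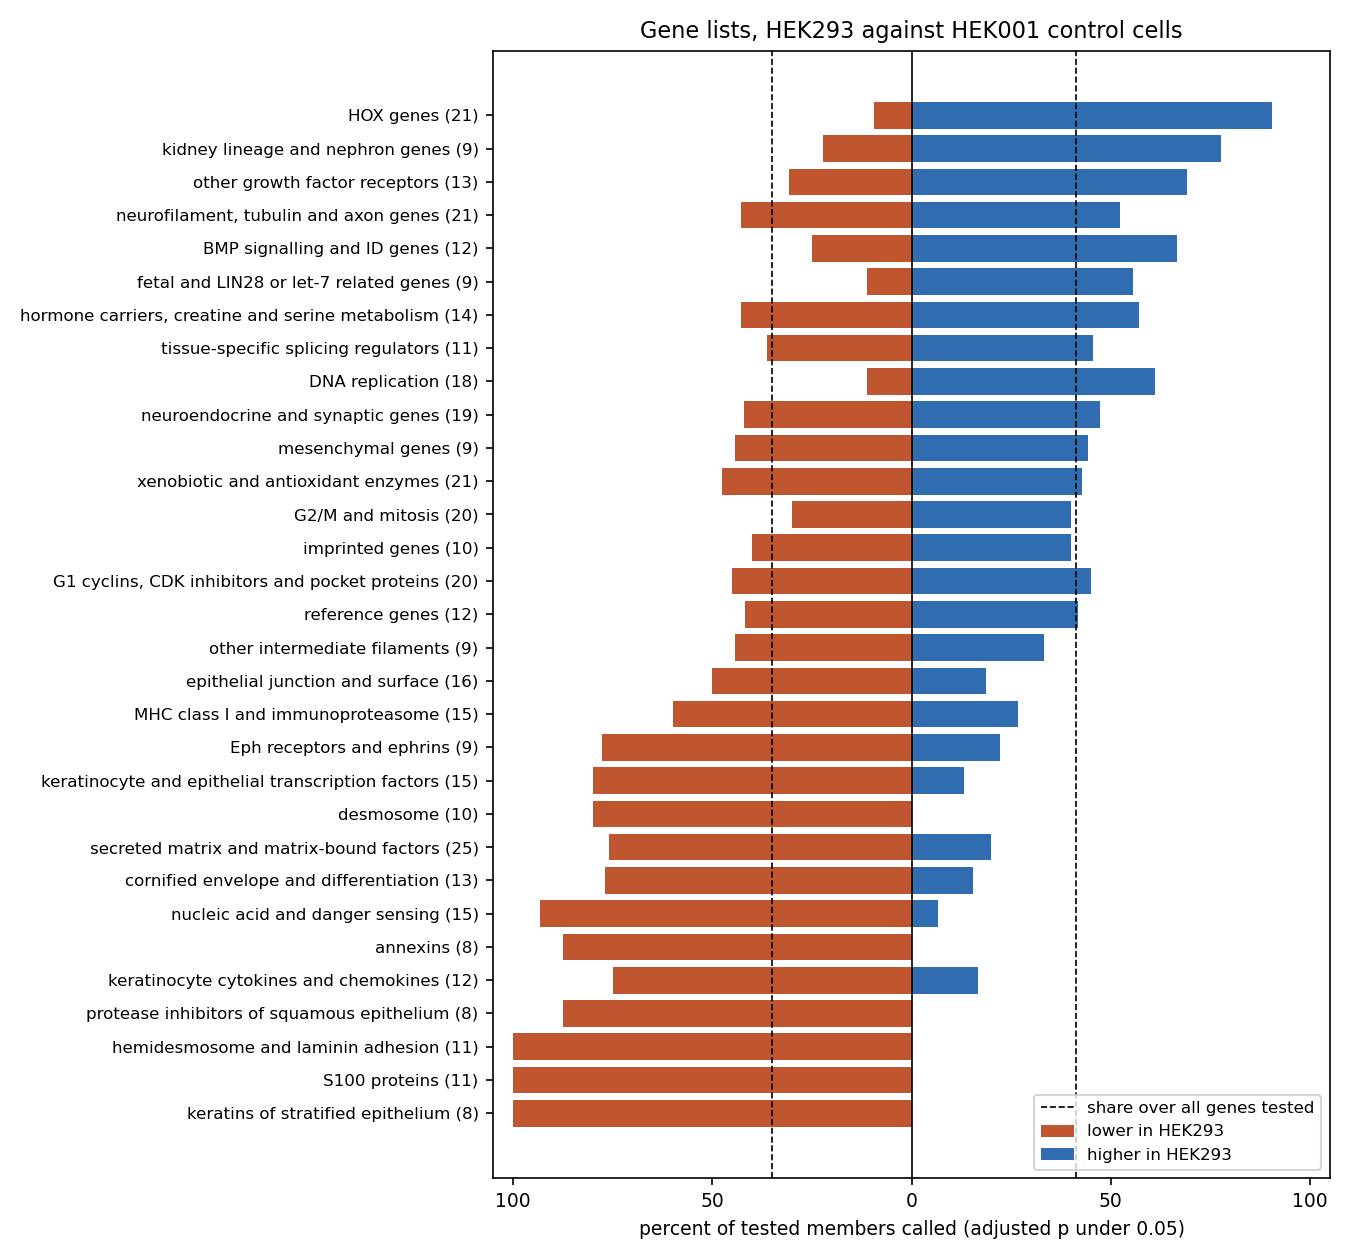
Percent of the tested members called in each gene list with at least 8 tested members (number tested in brackets), split into lower (left) and higher (right) in HEK293, with dashed lines at the shares over all genes tested, 34.9% and 41.2%. Of the lists drawn, HOX genes reach furthest to the right, and keratins of stratified epithelium, S100 proteins and hemidesmosome genes lie wholly to the left.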

How the data were processed

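For each of 12 Illumina arrays, columns per the file headers give every probe's mean intensity, its detection p-value, its bead error (a signal) and its number of beads (a count). The authors' intensities are on a linear scale with background subtracted, since between 27.07% and 29.12% of values per array lie below 0. The median bead count is 22 on every array, and the bead errors were not used. A second deposited table holds the authors' log2 values, whose scaling is not described in the sources used here. GenomeStudio 2010 and R 3.0.2 appear in the submitters' processing notes with no step given.

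Intensities of all 12 arrays were corrected by normexp from the detection p-values with an added offset of 16, quantile normalized and taken to log2. By the platform annotation 16040 probes had 1 gene, 3 had several and 31278 had no name here. RefSeq genes of GRCh38.p14 held 16030 of the 16040. The probe with the highest mean over the 6 control arrays stood for a gene, and among 2376 genes with several probes 82 had probes called in opposite directions. Means of the 4 groups were fitted with limma 3.58.1 in R 4.3.3 (8 residual and 13.4 total degrees of freedom). Adjusted p-values are Benjamini-Hochberg over 10218 genes. Where several probes of a gene are compared, they are over the 13073 named probes that passed. On simulated data of this size, 46 of 50 genes raised 2-fold and 47 of 50 lowered 2-fold were recovered, with 16 false calls. The simulation left most genes unchanged, while 76.1% were called here, so these numbers do not carry over to the data.

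Members and lists were chosen with earlier results of these data known. Named genes are the 12 largest differences per direction among genes detected on all 6 arrays, the 15 brightest detected in 1 line alone, list members with the largest differences or against their list, and the markers. Array number limits the precision. Alternatives were the background, scaling, offset, filter, probe choice, arrays and replicate block, and leaving out each replicate. Probes without a gene name were counted only.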

Additional observations from a re-analysis of the deposited data

Results flagged for a closer look

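Probes without a gene name here also separated the lines. Of the 2964 unnamed probes that passed the detection filter, 178 were detected on all 3 HEK001 control arrays and on no HEK293 control array, and 250 showed the opposite. These counts are near the corresponding shares of the genes tested, 6.07% and 7.56%. What the unnamed probes measure was not analysed. Groups of 3 arrays are too small for a test of single outlying arrays.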

How the results depend on the processing

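Between 7689 and 8265 genes were called under the processing alternatives, beside 7776, and between 7466 and 7643 when any 1 array was left out. The 6 NCSTN hairpin arrays, an alternative added after seeing the data, gave 7788. An offset of 50 in place of 16 lowered the number of genes with at least 4-fold differences from 1159 to 662, since a larger offset compresses differences of dim genes. Counting a gene as undetected only at a p-value of 0.05 or more lowered the genes on in HEK001 alone from 620 to 366 and those on in HEK293 alone from 772 to 525. Of 480 named called genes, between 462 and 478 kept their call and direction per alternative. The direction turned for KRT18, where another probe became the brighter one, at -0.26 under median scaling and without HEK293 replicate 1 (-0.36), 2 (-0.39) or 3 (-0.22), within a range from -0.39 to 2.34 over the left-out arrays. It also turned for RFC3 without HEK293 replicate 2 (range -0.11 to 0.67), and for CD68 (-0.60) and TAP2 (-0.35) as means over probes. No alternative moved the median of all genes by over 0.1: it shifted by -0.0145 under median scaling, by -0.0238 with no filter on dim probes and by 0.0391 on the NCSTN hairpin arrays. Deviations of each array from the mean of its line were correlated between the lines. Same-numbered arrays gave 0.08, 0.06 and 0.002, and differently numbered ones between -0.114 and 0.0548. All these values were small, and the arrays were not paired. With the replicate number as a block 7762 genes were called. Genes near the detection limit are the least certain, since only bounds can be given there.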

Other observations

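Several gene families outside the lists above were looked at after their values had been seen, so their counts are descriptions. MHC class II genes, which antigen-presenting cells use, were higher in HEK293 for 9 of 11 tested and lower for 2. Over all genes these shares were 41.2% and 34.9%. The 9 include HLA-DRB1, HLA-DRB3, HLA-DRB4, HLA-DRB5 and HLA-DRB6, and cross-reading between HLA genes was not analysed. HLA-DPA1 had levels of 4.44, 4.38 and 4.42 in HEK001 and 8.99, 8.71 and 8.55 in HEK293, at least 10.2-fold, and HLA-DMB, a peptide exchange factor, had 5.16, 4.83 and 5.09 against 8.74, 8.84 and 8.98, at least 11.02-fold. CD74, the invariant chain that accompanies class II molecules, went the other way, with 7.75, 7.66 and 7.85 in HEK001 and 4.92, 4.70 and 4.64 in HEK293, at least 5.32-fold. HLA-DRA, the other gene called lower, differed by -0.43, and its call was lost under 4 alternatives. Of 260 tested genes with a ZNF symbol, most of which encode zinc finger DNA-binding proteins, 151 (58.1%) were higher and 51 (19.6%) lower in HEK293, beside 41.2% and 34.9% of all genes, with a median of 0.55. Of these, 34 were detected in HEK293 alone and 7 in HEK001 alone. Some of the higher ones were bright in both lines, such as ZNF674 with means of 14.31 in HEK001 and 14.82 in HEK293. Cross-reading between ZNF genes was not analysed. ZNF711 was at least 8.05-fold higher in HEK293 and ZNF22 at least 17.8-fold higher in HEK001.

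Of 8 retinoid genes 5 were higher and 3 lower in HEK293. Beside the ALDH1A2 and ALDH1A3 difference, the retinoic acid hydroxylase CYP26A1 had 4.70, 4.51 and 4.88 in HEK001 and 9.18, 9.16 and 8.93 in HEK293, at least 12.96-fold, while CYP26B1, with the same activity, differed by -3.54. Tubulins also differed member by member. TUBA4A, an alpha-tubulin, had 10.99, 10.89 and 10.97 in HEK001 and 4.68, 5.23 and 4.88 in HEK293, at least 48.7-fold, while the beta-tubulin TUBB differed by -0.11 and was not called (adjusted p = 0.314). All 6 metallothioneins and 5 of 6 galectins were lower in HEK293, beside 34.9% of all genes. The 5 include LGALS7 and LGALS7B, and cross-reading between them was not analysed. Of 7 gap junction genes 5 were lower, GJB6 at least 20.5-fold and GJB2 with a log2 difference of -3.72, and 2 were higher. Of 10 protocadherins 8 were higher in HEK293, beside 41.2% of all genes, with PCDH7 at 2.45. Of the 8, 5 were undetected in HEK001 and so had to differ, with bounds from 1.27-fold (PCDH18) to 2.06-fold (PCDH20). PCDHGB6, 1 of the 2 called lower, differed by -0.36, and its call was lost under 13 alternatives.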
